A study of Mus musculus with 12 samples.

Results

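The genes described here are 8 mouse genes selected on their measured transcript level, which was higher at passage 10 than at passage 2 in cultured neural stem cells: Foxc1, Frk, Kank4, Iqgap2, Palmd, Pcyt1b, Spats2l and Ankrd34c. They were found by symbol in a table of 34745 genes, and all 8 were among the 16058 genes that passed a filter on low counts. The cells were primary cultures of neural stem cells from the hippocampus of wild type C57BL/6 mice, kept in DMEM/F12 with B27, EGF, bFGF and heparin. There were 3 groups of 4 libraries: cells at passage 2 (P2), cells at passage 10 that had received small extracellular vesicles of embryonic stem cells, ESC-sEVs, since passage 2 (P10 EV), and cells at passage 10 that had received the same volume of phosphate-buffered saline (P10 PBS). Such vesicles are membrane-bound particles that carry protein and RNA. According to its title, the study asked whether they rejuvenate aging stem cells by way of SMAD proteins and of Myt1, Egln3 and Sirt1. Only passages 2 and 10 were sampled, so whether a level climbed steadily between them was not measured.

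Neural stem cells divide in culture under EGF and FGF and can form neurons and glia, and passaging them many times is used as a model of their aging. The 8 genes belong to no single pathway. Foxc1 is a forkhead transcription factor needed in the mouse for the meninges, eye and skull, and Frk is a tyrosine kinase related to Src. Kank4 belongs to the KANK adaptors, which bind talin at cell adhesions, and Iqgap2 is a scaffold that binds calmodulin and actin. Palmd encodes palmdelphin, a relative of the membrane protein paralemmin. Pcyt1b makes the beta form of CCT, the enzyme of the regulated step of phosphatidylcholine synthesis. Spats2l encodes an RNA-binding protein found in stress granules of human cells. Ankrd34c encodes a protein with ankyrin repeats.

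Promoter sequences are shown for 4 members because the study's title names SMAD proteins, whose short DNA motif could be searched for, and because these 4 differ in their SMAD boxes and CpG content. The RefSeq table of build GRCm38.p6 held promoters for 7 of the 8 members, with no entry for Palmd and 2 for Pcyt1b. Each runs from 250 bases before the start of transcription to 50 bases after it, 5′ to 3′ on the strand of the gene. Capitals mark the SMAD box CAGAC, the CCAAT box and the GC box GGGCGG on either strand. The sequences are:
Kank4, chr4:98817488-98817787, minus strand: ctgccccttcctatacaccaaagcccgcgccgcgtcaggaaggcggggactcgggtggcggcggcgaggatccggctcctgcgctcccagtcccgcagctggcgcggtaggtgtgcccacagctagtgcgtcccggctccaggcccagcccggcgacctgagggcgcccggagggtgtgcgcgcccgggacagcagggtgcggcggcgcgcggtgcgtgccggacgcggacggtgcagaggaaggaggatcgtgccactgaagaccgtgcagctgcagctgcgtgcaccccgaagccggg
Foxc1, chr13:31806396-31806695, plus strand: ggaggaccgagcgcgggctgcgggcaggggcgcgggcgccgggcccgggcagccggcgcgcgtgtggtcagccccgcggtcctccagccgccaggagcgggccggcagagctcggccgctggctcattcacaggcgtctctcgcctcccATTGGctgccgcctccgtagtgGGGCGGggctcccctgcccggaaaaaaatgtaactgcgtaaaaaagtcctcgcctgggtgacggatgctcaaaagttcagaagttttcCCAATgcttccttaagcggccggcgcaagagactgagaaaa
Spats2l, chr1:57845321-57845620, plus strand: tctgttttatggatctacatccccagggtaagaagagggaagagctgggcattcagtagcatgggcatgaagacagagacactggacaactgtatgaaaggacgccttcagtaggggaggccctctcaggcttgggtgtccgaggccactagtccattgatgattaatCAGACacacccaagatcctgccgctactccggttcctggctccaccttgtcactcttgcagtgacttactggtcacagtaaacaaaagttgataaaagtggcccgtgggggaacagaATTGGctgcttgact
Ankrd34c, chr9:89738426-89738725, minus strand: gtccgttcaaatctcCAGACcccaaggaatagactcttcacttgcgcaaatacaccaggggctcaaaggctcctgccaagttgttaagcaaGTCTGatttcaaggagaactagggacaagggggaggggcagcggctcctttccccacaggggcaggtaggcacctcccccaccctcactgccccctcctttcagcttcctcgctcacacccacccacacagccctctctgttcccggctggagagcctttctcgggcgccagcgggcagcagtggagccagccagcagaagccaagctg

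The promoters differed in CpG content. Iqgap2, Kank4 and Foxc1 held 41, 38 and 32 CpG dinucleotides in 300 bases, against a median of 7 over the 32851 promoters searched. The promoters searched did not cover every chromosome. Ankrd34c held 8, Spats2l 5 and Frk 1, and the 2 Pcyt1b entries held 2 and 9. A SMAD box was present in 4 of the 8 entries and in 49.6% of the promoters searched. Frk held 2, Ankrd34c 2, Spats2l 1 and the downstream Pcyt1b entry 3, while Kank4, Foxc1, Iqgap2 and the upstream Pcyt1b entry held 0. In Ankrd34c the 2 boxes began 235 and 159 bases before the start of transcription, and in Spats2l the box began 82 bases before it. The CCAAT box was in 4 of 8 entries against 37.4% of the promoters searched, and the GC box in 2 against 35.7%. The E-box CANNTG was in 7 against 72.3% and the TATA box TATAAA in 0 against 13.6%. Motifs were sought on both strands. No motif was common to all members. The Spats2l start of transcription in RefSeq lies 71.4 kb inside the gene as deposited, and the downstream Pcyt1b start lies 20.2 kb inside, so these promoters serve some of the transcripts that were counted together.

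Libraries held between 10736538 and 16807647 counts, and a member had between 16 counts (Frk) and 1929 counts (Iqgap2) in a library. Of 15 neural stem cell markers, all 15 passed the count filter and 0 were called between any groups, with a summed level of 6853 to 8922 CPM (counts scaled to the size of the library). Alb, a liver transcript, stood at 16.3 and 21.5 CPM in P2 replicates 1 and 2, at 16.5 in P10 PBS replicate 1 and at 17.2 in P10 EV replicate 1, and at or under 0.145 in the other 8 libraries. Values without these 4 libraries are given beside the comparison of vesicles with saline. Levels below are CPM in the order of replicates 1 to 4 unless FPKM, which is scaled by gene length as well, is named. In bulk RNA, fewer cells of a type and less RNA per cell cannot be told apart.

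Foxc1 (ENSMUSG00000050295, chr13:31806691-31810643 in the deposited coordinates, plus strand) was at 5.71, 12.6, 7.11 and 7.26 CPM at P2. It was at 34.1, 17.8, 40.8 and 26.9 CPM in P10 PBS and at 16.7, 20.0, 16.9 and 13.4 CPM in P10 EV. Both late groups lay above every P2 library, and the lowest saline library fell within the range of the vesicle libraries. Replicate 2 was the highest of the P2 libraries and the lowest of the P10 PBS libraries, which left a log2 difference of 0.50 between saline and P2 for that number, against 1.89 to 2.58 for the others.

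Frk (ENSMUSG00000019779, chr10:34483400-34611226, plus strand) had the lowest level per gene length at P2 and was at 1.14, 1.39, 2.79 and 1.90 CPM there. It reached 7.77, 9.73, 10.1 and 7.55 CPM in P10 PBS and 5.38, 5.63, 4.77 and 8.26 CPM in P10 EV. The P2 libraries were apart from both late groups. Vesicle replicates 1, 2 and 3 lay under all saline libraries, and replicate 4 lay among them.

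Kank4 (ENSMUSG00000035407, chr4:98754898-98817537, minus strand) was the most even member in the saline group, at 26.4, 24.3, 25.0 and 24.0 CPM. The P2 libraries were at 5.56, 11.3, 5.24 and 4.45 CPM and the P10 EV libraries at 16.6, 12.9, 14.2 and 12.4 CPM. The 3 groups did not overlap, with vesicle libraries between P2 and saline. P2 replicate 2 was high here as for Foxc1.

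Iqgap2 (ENSMUSG00000021676, chr13:95627177-95891922, minus strand) was the most abundant member per gene length. It was at 55.8, 41.4, 22.3 and 37.4 CPM at P2, at 79.0, 66.7, 121 and 98.6 CPM in P10 PBS and at 96.1, 87.2, 99.5 and 120 CPM in P10 EV. Saline and vesicle libraries were intermixed, and all 8 were above P2.

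Palmd (ENSMUSG00000033377, chr3:116918258-116968987, minus strand) was at 4.56, 3.87, 2.20 and 3.79 CPM at P2. The P10 PBS libraries were at 21.2, 13.4, 15.9 and 12.6 CPM and the P10 EV libraries at 10.2, 10.6, 5.02 and 8.51 CPM. As for Kank4, the 3 groups were ordered without overlap, P2 lowest and saline highest.

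Pcyt1b (ENSMUSG00000035246, chrX:93654863-93749951, plus strand) was at 17.0, 33.3, 17.0 and 13.8 CPM at P2, at 68.0, 49.9, 56.3 and 52.6 CPM in P10 PBS and at 61.7, 52.1, 43.3 and 44.1 CPM in P10 EV. Again P2 replicate 2 stood above the other P2 libraries, and saline and vesicle libraries overlapped. The gene is X-linked. Xist, the RNA of the inactive X chromosome, was between 2002 and 3080 CPM in replicates 1 and 2 of every group and at or under 0.93 CPM in replicates 3 and 4, so each group held both kinds of culture.

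Spats2l (ENSMUSG00000038305, chr1:57774162-57948394, plus strand) was at 23.6, 27.1, 15.6 and 19.9 CPM at P2, at 39.4, 44.9, 39.7 and 46.8 CPM in P10 PBS and at 55.0, 57.3, 50.7 and 51.3 CPM in P10 EV. The 3 groups did not overlap, and here the vesicle libraries were the highest.

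Ankrd34c (ENSMUSG00000047606, chr9:89725239-89738475, minus strand) was the most uneven member in saline, at 26.1, 8.17, 21.9 and 14.3 CPM. It was at 3.14, 2.85, 3.81 and 7.01 CPM at P2 and at 8.16, 10.8, 10.0 and 11.6 CPM in P10 EV. Both late groups were above P2, and the lowest saline and vesicle libraries were almost equal.

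Per gene length, the order of the members at P2 was Iqgap2 at 6.72 ± 2.43 FPKM (SD, n = 4), Pcyt1b at 3.56 ± 1.48, Foxc1 at 2.03 ± 0.717, Spats2l at 1.78 ± 0.403, Kank4 at 1.28 ± 0.580, Ankrd34c at 0.540 ± 0.259, Palmd at 0.394 ± 0.114 and Frk at 0.316 ± 0.124. Neighbours in this order overlapped in range. In P10 PBS, Kank4 at 4.84 ± 0.0822 FPKM stood above Spats2l at 3.53 ± 0.391 without overlap. In P10 EV the order of these was the opposite, with Spats2l at 4.60 ± 0.228 FPKM and Kank4 at 2.83 ± 0.350, again without overlap. Iqgap2 and Pcyt1b had the highest means in all 3 groups.

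**Figure D1:**
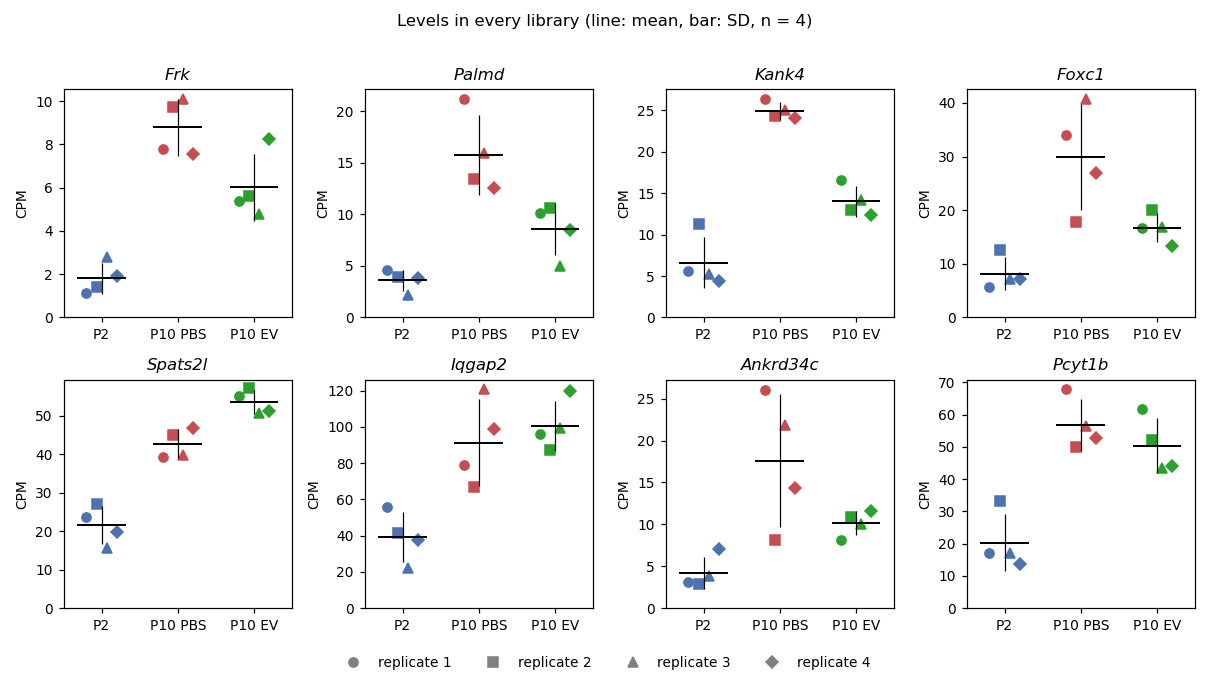
Level of each member (CPM, linear axis from 0) in each of the 12 libraries, by group; the horizontal line is the mean of 4 libraries, the vertical bar the SD and the symbol the replicate number. Late libraries lie above every P2 library for all 8 genes; vesicle libraries lie between P2 and saline for Kank4 and Palmd and above saline for Spats2l.

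The members were chosen by their difference from P2, so these values are given as a description. Both late groups lay above P2 without overlap for all 8, as did 2.58% of tested genes in P10 PBS and 4.66% in P10 EV, and nothing is read from that count. Mean levels in P10 PBS were between 1.98 times (Spats2l) and 4.87 times (Frk) those at P2. The log2 fold change over P2 was 2.29 ± 0.29 (SE) for Frk, 2.12 ± 0.29 for Palmd, 2.07 ± 0.36 for Ankrd34c, 1.91 ± 0.25 for Kank4 and 1.87 ± 0.28 for Foxc1. Lower values were found for Pcyt1b (1.48 ± 0.25), Iqgap2 (1.22 ± 0.25) and Spats2l (0.98 ± 0.16). All 8 were among the 61 genes called higher in P10 PBS than at P2, 0.38% of those tested, as their selection implies. The alternative fits, here and for P10 EV below, reuse libraries that helped to choose the members. Their counts of calls therefore describe dependence on the fit and are no support for a rise. Over 20 alternative fits, Frk, Palmd and Kank4 were called in all 20, Foxc1 and Spats2l in 19, Pcyt1b in 17, Ankrd34c in 16 and Iqgap2 in 8. All 5 of the latter lost the call with the 8 compared libraries fitted alone, Pcyt1b and Ankrd34c also without P10 PBS replicate 1 or 3, and Ankrd34c also without P2 replicate 3. Iqgap2 lost it under the replicate block and without any 1 library except P2 replicate 1 or P10 PBS replicate 2. In P10 EV the log2 fold change over the same P2 libraries was narrower in range, from 1.03 ± 0.28 for Foxc1 to 1.74 ± 0.29 for Frk. Of the members, Frk, Spats2l, Iqgap2 and Pcyt1b were among the 28 genes (0.174%) called higher in P10 EV than at P2. This split depended on the fit. Spats2l was called in 20 of 20 alternatives, Frk in 15, Pcyt1b in 11 and Iqgap2 in 10, and of the others Kank4 was called in 5, Palmd and Foxc1 in 3 and Ankrd34c in 1. Leaving out P10 EV replicate 1, 2 or 4, or P2 replicate 4, ended the calls of Frk, Pcyt1b and Iqgap2. Palmd and Kank4 were called without P2 replicate 1, and Kank4 and Foxc1 without P2 replicate 2.

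**Figure D2:**
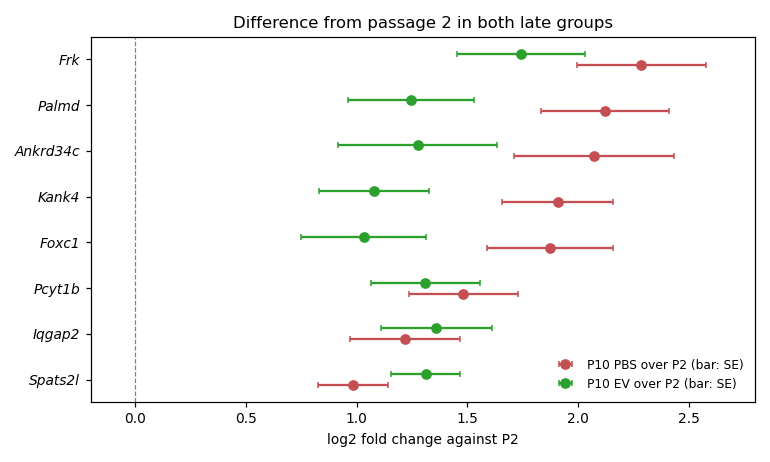
Log2 fold change of each member over P2 in P10 PBS (red) and P10 EV (green), with its SE from the model across all 12 libraries. The 2 groups share the P2 libraries; saline values run from 0.98 to 2.29 and vesicle values from 1.03 to 1.74.

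The comparison of vesicles with saline at passage 10 asked how far the vesicle treatment moved each member. The members split in direction: 6 had a lower fitted level with vesicles and 2 a higher one, and the largest differences were in Palmd, Foxc1, Kank4 and Ankrd34c. None of the 8 was called by edgeR's quasi-likelihood test with Benjamini-Hochberg adjustment, with adjusted p between 0.543 and 0.928. The background was the same: 0 of 16058 genes (0%) were called, the smallest adjusted p was 0.257, and 1163 genes (7.24%) had an unadjusted p under 0.05. DESeq2 called 67 genes, none of them a member, and limma-voom called 0. The saline libraries also served to choose the members, so the sign of this difference is not independent of that choice.

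Mean Palmd was 8.57 ± 2.53 CPM with vesicles (SD, n = 4) and 15.8 ± 3.88 CPM with saline, 54.3% of the saline level. The log2 fold change was -0.88 ± 0.27 (SE, 95% interval -1.47 to -0.29, edgeR adjusted p = 0.550). Its vesicle libraries were all lower than its saline libraries, and the difference was negative in 4 of 4 replicate numbers, from -1.67 to -0.34.

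Mean Kank4 was 14.0 ± 1.89 CPM with vesicles and 24.9 ± 1.07 CPM with saline, 56.2% of the saline level. The log2 fold change was -0.83 ± 0.24 (95% interval -1.35 to -0.31, edgeR adjusted p = 0.543). Kank4 was the steadiest of the lowered members across replicate numbers, -0.96 to -0.67 on the log2 scale.

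Mean Foxc1 was 16.7 ± 2.71 CPM with vesicles and 29.9 ± 9.85 CPM with saline, a log2 fold change of -0.84 ± 0.27 (95% interval -1.43 to -0.25, edgeR adjusted p = 0.551). It was lower in 3 of 4 replicate numbers and higher by 0.17 in number 2. Ankrd34c stood at 10.2 ± 1.48 CPM against 17.6 ± 7.96 CPM, a log2 fold change of -0.80 ± 0.34 (95% interval -1.54 to -0.05, edgeR adjusted p = 0.671). Its differences by replicate number spread from -1.68 to 0.41. For both genes the exception was number 2, whose saline library was the lowest.

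Frk stood at 6.01 ± 1.54 CPM with vesicles and 8.79 ± 1.32 CPM with saline, a log2 fold change of -0.54 ± 0.27 (95% interval -1.12 to 0.03, edgeR adjusted p = 0.726). Pcyt1b stood at 50.3 ± 8.58 CPM against 56.7 ± 7.99 CPM, a log2 fold change of -0.17 ± 0.24 (95% interval -0.69 to 0.35, edgeR adjusted p = 0.910). Iqgap2 stood at 100.7 ± 13.8 CPM against 91.4 ± 23.9 CPM, a log2 fold change of 0.14 ± 0.25 (95% interval -0.39 to 0.67, edgeR adjusted p = 0.928). For these 3 genes the interval included 0.

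Spats2l was the member whose vesicle libraries lay above all saline libraries, at 53.6 ± 3.14 CPM against 42.7 ± 3.72 CPM. The log2 fold change was 0.33 ± 0.15 (95% interval -0.01 to 0.66, edgeR adjusted p = 0.697), and it was positive in 4 of 4 replicate numbers.

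Groups did not overlap for 3 of the 8 members, against 7.58% of all tested genes. Lower vesicle libraries without overlap were found for Palmd and Kank4 (3.84% of genes) and higher ones for Spats2l (3.74%). An unadjusted edgeR p under 0.05 was found for 4 members, Palmd, Kank4, Foxc1 and Ankrd34c, against 7.24% of all tested genes. The median log2 fold change was -0.67 over the members and 0.01 over all tested genes. The saline libraries helped to choose the members, so all tested genes are not a like background for them. Nothing is read from these counts or from the median. Without the 4 libraries with liver transcripts the log2 fold change was -0.89 for Kank4, -0.79 for Palmd, -0.77 for Foxc1, -0.54 for Frk, -0.44 for Ankrd34c, -0.18 for Pcyt1b, 0.11 for Iqgap2 and 0.28 for Spats2l, so Ankrd34c was the member that moved most.

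**Figure D3:**
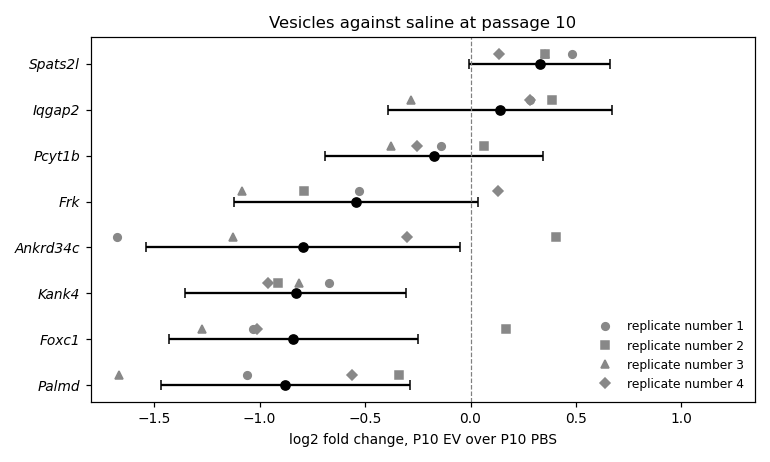
Log2 fold change of P10 EV over P10 PBS for each member; the black point and bar are the fitted value and its 95% interval, and the grey symbols are the differences between libraries of the same replicate number. Palmd, Foxc1, Kank4 and Ankrd34c have intervals under 0, and Spats2l lies above 0 in all 4 numbers.

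Relatives of the members were compared with them by FPKM, which the authors scaled for gene length. Among the Src-related kinases, Frk was the least abundant shown at P2, at 0.316 ± 0.124 FPKM (SD, n = 4) against 46.1 for Fyn. The other family member that changed was Lyn, a Src-family kinase best known from blood cells. Lyn was at 55.7, 81.0, 52.3 and 67.4 CPM at P2, at 201, 100.2, 160.1 and 139.4 CPM in P10 PBS and at 116, 92.3, 104.5 and 91.4 CPM in P10 EV. It rose in P10 PBS over P2 by 1.23 ± 0.20 on the log2 scale (edgeR adjusted p = 0.0153). That call was lost with the 8 compared libraries fitted alone (adjusted p = 0.0659) and without P10 PBS replicate 3 (adjusted p = 0.0542). The vesicle-minus-saline value of Lyn was -0.57 ± 0.20 (edgeR adjusted p = 0.599). Of 11 relatives of Frk in the table, 5 were tested, and Lyn was the 1 called between any groups.

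Of the KANK adaptors, Kank4 had a lower mean FPKM than its 3 relatives at P2 (1.28, against 8.16 for Kank1, 4.96 for Kank2 and 2.27 for Kank3). In P10 PBS Kank4 was at 4.84 FPKM, between Kank1 at 6.01 and Kank2 at 4.10, and in P10 EV at 2.83. The other 11 genes of the KANK and cortical adhesion list, talins included, were tested, and 0 were called between any groups. The list's median log2 fold change was -0.23 in saline over P2 and 0.11 in vesicles over saline.

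Iqgap2 and Iqgap1 had similar levels at P2, 6.72 ± 2.43 and 7.36 FPKM, whereas in P10 PBS Iqgap2 was at 15.6 and Iqgap1 at 6.51 FPKM. In P10 EV they were at 17.9 and 6.25 FPKM. Spats2l remained far under its relative Spats2, at 1.78, 3.53 and 4.60 FPKM at P2, in P10 PBS and in P10 EV against 26.8, 29.9 and 31.2 FPKM.

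The pair of CCT genes showed unequal spread. Pcyt1b was at 3.56 FPKM at P2 and Pcyt1a, the widely expressed alpha form, at 5.72, and in P10 PBS they were at 9.96 and 6.97 FPKM. Pcyt1a was at 48.3, 114.3, 140.3 and 34.5 CPM at P2 and at 136.7, 123.4, 34.6 and 113.5 CPM in P10 PBS, so P2 replicates 1 and 4 and P10 PBS replicate 3 stood far under the others. In P10 EV it was even, at 133.9, 114.9, 121.7 and 126.9 CPM. There Pcyt1b was at 9.21 FPKM and Pcyt1a at 8.86 FPKM, with overlapping ranges. Of the 14 tested genes of phosphatidylcholine and phosphatidylethanolamine synthesis other than Pcyt1b, 0 were called between any groups.

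Among the paralemmins, Palm had the highest level, 10.6, 7.77 and 9.23 FPKM at P2, in P10 PBS and in P10 EV, against 0.394, 1.71 and 0.967 for Palmd. Palm2, a low-level relative, was at 1.85, 1.09, 0.760 and 1.07 CPM at P2. It was at 2.99, 3.39, 1.31 and 2.25 CPM in P10 PBS and at 0.236, 0.671, 0.329 and 0.248 CPM in P10 EV. Its vesicle libraries lay under all P2 and all saline libraries. The log2 fold change of vesicles over P2 was -1.71 ± 0.45 (edgeR adjusted p = 0.0992). That of vesicles over saline was -2.76 ± 0.44 (edgeR adjusted p = 0.257). It was called by DESeq2 (adjusted p = 0.000293) and by none of the other alternatives, in which the adjusted p was between 0.0824 and 0.897. Of the forkhead factors other than Foxc1, 15 of 26 were tested and 0 were called between any groups, and Foxc2, the closest relative of Foxc1, did not pass the count filter. Ankrd34a, the tested relative of Ankrd34c, was at 0.465, 0.28 and 0.308 FPKM in the 3 groups.

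**Figure D4:**
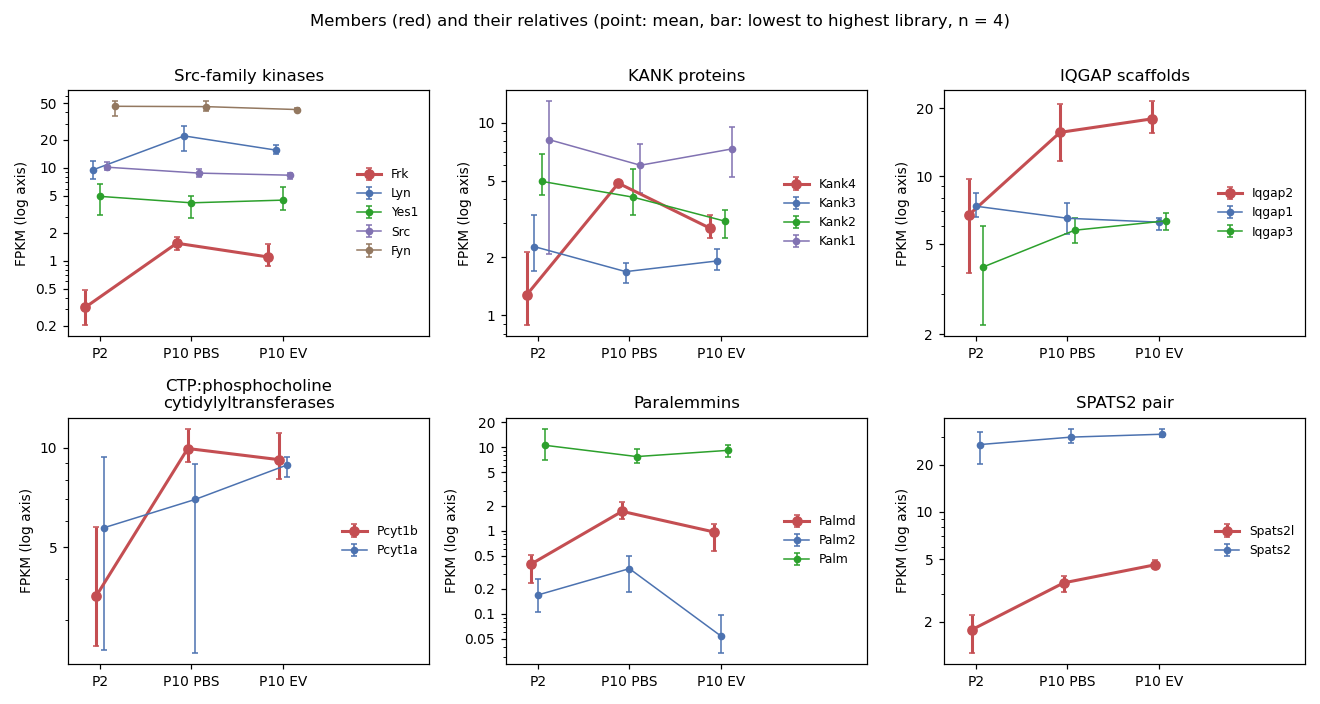
FPKM (log axis) of 6 members (red) and their relatives in the 3 groups; points are means of 4 libraries, bars run from the lowest to the highest library, and lines only guide the eye. Iqgap2 and Pcyt1b pass Iqgap1 and Pcyt1a in mean level between P2 and P10 PBS, and Kank1 at P2 and Pcyt1a at P2 and in P10 PBS have wide bars.

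Of 18 markers of meningeal fibroblasts and mural cells, 4 passed the count filter, Lum was at 0 in every library, and their summed level was 8.62 to 16.7 CPM at P2, 8.53 to 15.2 in P10 PBS and 9.98 to 15.9 in P10 EV. Foxc1 alone was above each of these sums in every P10 PBS library. Its range overlapped that of the sums at P2 (5.71 to 12.6 CPM) and in P10 EV (13.4 to 20.0 CPM). CPM is not scaled by gene length, and which cells the Foxc1 transcripts came from was not tested. Of 7 endothelial markers 3 passed, with sums of 6.59 to 40.4 CPM at P2, 13.7 to 50.4 in P10 PBS and 9.92 to 13.1 in P10 EV. Most of the endothelial sum was Flt1, a VEGF receptor. Flt1 was at 44.9 CPM in P10 PBS replicate 1, the library with the highest Palmd, Kank4, Ankrd34c and Pcyt1b of its group. In P2 replicate 2 it was at 36.8 CPM. Kdr was also the highest of its group in these libraries, at 3.47 and 3.36 CPM. Pecam1 was the highest of its group in P10 PBS replicate 1 (1.09 CPM) but the lowest in P2 replicate 2 (0.146 CPM). Cldn5, Cdh5, Tek and Emcn did not pass the count filter. The part of these transcripts in the members' levels was not tested. The 5 epithelial markers summed to at most 1.24 CPM and the 7 microglial markers to at most 2.42 CPM.

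Among glial markers, 2 were called between passages. The summed level of 6 astrocyte markers was 874 to 3707 CPM at P2, 908 to 1364 in P10 PBS and 685 to 808 in P10 EV, and of the 6 tested, Slc1a2, a glutamate transporter, was called lower in P10 EV than at P2. Of 7 tested markers of the oligodendrocyte lineage, Sox10, a transcription factor of that lineage, was called lower in P10 PBS than at P2, and their sums were 2163 to 3269 CPM at P2, 2308 to 3020 in P10 PBS and 2560 to 2900 in P10 EV. None of 7 tested neuronal markers (summed 469 to 739 CPM over all libraries) or of 2 tested choroid plexus and ependymal markers (25.1 to 49.6 CPM) was called. The part of these in the members' levels was not tested.

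The nearest tested gene on each side, 16 in all, gave log2 fold changes between -0.40 (Rasgrf1) and 0.64 (Pola1) in saline over P2, and 0 of 16 were called in any comparison. Within 1000 kb of the ends of the members lay 107 tested genes, of which 2 rose in saline over P2 (0.38% of all tested genes did) and 0 were called in the other comparisons. They were Kank4os, which overlaps Kank4 on the opposite strand (2.09 ± 0.39, edgeR adjusted p = 0.0248), and Gm14827 near Pcyt1b (1.21 ± 0.24, edgeR adjusted p = 0.0333). Kank4os was at 0.356, 0.511, 0.169 and 0.329 CPM at P2 and at 1.50, 1.56, 1.59 and 1.38 CPM in P10 PBS. Both calls were lost with the 8 compared libraries fitted alone (edgeR adjusted p = 0.0562 and 0.0929), and in all they were lost in 7 and 12 of 20 alternatives, which for both include leaving out any 1 of the P10 PBS libraries, P2 replicate 3 or P2 replicate 4. The labels do not say that counting used strand, so reads of Kank4 and Kank4os cannot be told apart where they overlap. Overlap also joins Palmd with Gm42892, on the same strand, at 1.57 ± 0.39 in saline over P2 (edgeR adjusted p = 0.0858), and Iqgap2 with F2rl2, on the opposite strand, at 0.94 ± 0.44 (edgeR adjusted p = 0.365).

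**Figure D5:**
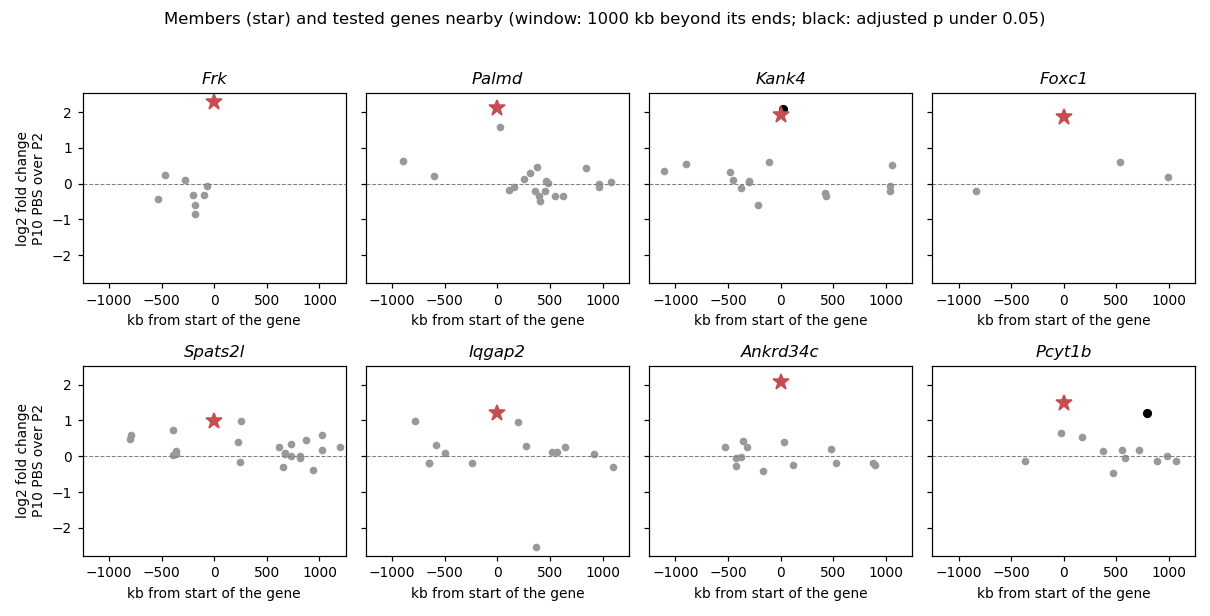
Log2 fold change of P10 PBS over P2 for each member (star) and the tested genes within 1000 kb of its ends, against the distance of their starts in kb along the member's strand; black marks an adjusted p under 0.05. The 2 black points are Kank4os, at 23.8 kb from the start of Kank4, and Gm14827 near Pcyt1b.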

How the data were processed

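Polyadenylated RNA was sequenced in 12 libraries. The authors deposited raw counts per gene and FPKM (counts scaled by gene length and by library total) in 1 table, and 0 value columns were left without a sample. HISAT2 2.0.4 and StringTie 1.3.0 are named without a role in the submitters' processing notes. The counting program is not given in the sources used here, nor is the genome build. Of the 34745 genes, 34267 are in GENCODE M21 (GRCm38), and 80.79% of these have the same coordinates there. Coordinates of genes are as deposited, and promoters are from RefSeq, GRCm38.p6.

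The members and the lists of genes were chosen with earlier results of these data known. The deposited counts were filtered with filterByExpr (minimum count 10), scaled by TMM and fitted in edgeR 4.0.16 with 1 mean per group over all 12 libraries. Benjamini-Hochberg adjustment of the quasi-likelihood p-values covered all 16058 genes, with calls at an adjusted p under 0.05. CPM are counts scaled by the TMM-adjusted total. Alternatives used DESeq2 1.42.0, limma 3.58.1 (voom, and trend on log2(FPKM + 1)), DESeq2 size factors, no count filter, the 8 compared libraries alone, a replicate block, and the omission of each library or of the 4 with liver transcripts. Scripts were tested on simulated counts. Named beside the members are called list genes or the most expressed ones, relatives of the same root symbol, the nearest tested neighbours, overlapping genes, and the 5 genes with the highest correlation to the members. Some results that this takes are not reported here.

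Replicate numbers carry the same culture code in all groups. Deviations from group means of same-numbered P10 EV and P10 PBS libraries correlated at 0.37, 0.148, 0.138 and 0.208. P10 EV replicate 3 was more like P10 PBS replicate 4 than its own number. Except where the replicate block is named, values are from the fit without replicate numbers. Against P2 the correlations were between -0.0845 and 0.211. Whether a code is 1 animal is not stated in the labels, so p-values measure the spread between these libraries. That spread is not only technical, since Xist was high in replicates 1 and 2 and almost absent in replicates 3 and 4. How many animals it covers is not known.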

Additional observations from a re-analysis of the deposited data

Results flagged for a closer look

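Of 24 sets of 4 libraries (8 members in 3 groups), 2 had a library far from the other 3, where its gap to the nearest library divided by the whole range was over the 95% critical value of Dixon. Chance gives about 1 such set in 20. Both were the highest library of P2, replicate 2. Kank4 was at 11.3 CPM there, and the next P2 library was at 5.56 CPM. Pcyt1b was at 33.3 CPM there, and the next was at 17.0 CPM. The same library held Alb at 21.5 CPM and Flt1 at 36.8 CPM, with the endothelial markers Kdr at 3.36 and Pecam1 at 0.146 CPM. The part of these in the members' levels was not tested.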

How the results depend on the processing

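Over 20 alternatives for each of the 8 members, all 160 vesicle-minus-saline values kept their direction and 0 were called. The lowest adjusted p was 0.0824 (edgeR, Kank4, the 8 compared libraries alone). The alternatives refit the same libraries, and those without a P2 library leave out none of the libraries compared. Agreement in direction was thus largely fixed in advance, and the saline libraries also helped to choose the members. Nothing is read from it. The log2 ranges were -0.99 to -0.46 for Palmd, -0.92 to -0.61 for Kank4, -1.02 to -0.62 for Foxc1, -1.03 to -0.41 for Ankrd34c, -0.74 to -0.28 for Frk, -0.28 to -0.09 for Pcyt1b, 0.02 to 0.31 for Iqgap2 and 0.28 to 0.38 for Spats2l. The smallest differences of Palmd and Frk, -0.46 and -0.28, came from limma-trend on log2(FPKM + 1). There the added 1 shrinks differences of genes at low FPKM, so these are not the same measure as the fits on counts. With the replicate block, adjusted p was between 0.564 and 0.927 over the members, and 0 genes were called; it changed no call of a member in that comparison. The members' calls against P2 depended on the fit for 5 of 8 members in P10 PBS and for 7 of 8 in P10 EV, as given with those comparisons. Counts over all genes moved more. Between P10 EV and P10 PBS, edgeR called 0 genes, DESeq2 67, the 8 libraries alone 2, and leaving out 1 library gave 0 to 1. Between P10 PBS and P2 the count was 149, with 592 by DESeq2, 38 with 8 libraries alone, 2320 without the 4 libraries with liver transcripts and 41 to 1206 leaving out 1 library, the highest without P2 replicate 1. Between P10 EV and P2 it was 94, with 924, 30, 3335 and 8 to 2821 in the same order, the highest again without P2 replicate 1. With the replicate block the 2 counts against P2 were 167 and 67. Leaving out the 4 libraries with liver transcripts kept only replicates 3 and 4 of P2, where Xist was almost absent. Of each late group it kept replicates 2, 3 and 4. The causes of these differences in count were not tested. With 4 libraries a group, members that miss the threshold are not shown to be equal between vesicles and saline.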

Other observations

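Among the 5 tested genes whose level was most like the mean of the members over the 12 libraries (Pearson's r on log2 CPM, a description, since the groups themselves set most of the likeness) were Hoxa5 (0.97), Zic5 (0.957), Nsf (0.949) and H2-Q4 (0.94). By Spearman's rho, 0 of these 5 were among the 5 most alike. Hoxa5, a homeobox factor of trunk segments, was at 0, 0.073, 0 and 0 CPM at P2, at 2.04, 1.01, 1.40 and 0.508 CPM in P10 PBS and at 0.945, 1.01, 0.739 and 0.806 CPM in P10 EV. Zic5, a zinc finger factor of neural development, was at 5.85 ± 1.44, 16.2 ± 4.28 and 13.1 ± 0.726 CPM in the 3 groups (SD, n = 4). Nsf, which takes apart SNARE complexes, differed little, at 87.5 ± 4.09, 106.8 ± 8.41 and 103.2 ± 1.69 CPM. H2-Q4 belongs to a family of near-identical class I genes, among which reads can be split, so its level is uncertain.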
